A study of Homo sapiens with 3 samples.

Results

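The 10 genes described here are members of the Notch pathway together with MAMLD1, a gene that encodes a mastermind-like domain. They comprise the receptors NOTCH1, NOTCH2 and NOTCH3, the ligand JAG1, the DNA-binding factor RBPJ, the coactivator MAML1, MAMLD1 itself, and the target genes HES1, HEY1 and NRARP. Their probes were found through the RefSeq accession given for each probe, which yielded 14 probes for all 10 genes, out of 34127 gene probes and 19740 named genes on the array. The mRNA was taken from Huh7 cells, an established human hepatoma line that was cultured in DMEM with fetal calf serum. Cells were left untreated, or were exposed for 24 h to 50 μM or 100 μM of chlorogenic acid (CA), a plant polyphenol studied for its effect on the differentiation of cancer cells. A Cy3-labelled sample of each group was run on a one-colour Agilent array, giving 3 arrays without replicates. Each difference below therefore sets 1 array against another and lacks a replicate check, and no p-value was computed. The question put to the arrays was whether transcripts of the Notch pathway, and MAMLD1 among them, differed after CA.

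Notch receptors are cleaved when a ligand of the Delta or Jagged family on a neighbouring cell binds them, and the released intracellular domain enters the nucleus. There it joins RBPJ and a mastermind coactivator of the MAML family on DNA and switches on targets such as the HES and HEY repressors and NRARP, an inhibitor of the same complex. In the liver the pathway is best known for the specification of bile duct cells, for which JAG1 and NOTCH2 are required.

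Values are processed signals in arbitrary intensity units, which were corrected for background but not scaled between arrays. Log2 ratios were formed after the signal of each array had been divided by its 75th percentile, which was 1059, 1207 and 1249 units on the arrays of the untreated group, CA 50 μM and CA 100 μM. A ratio was formed only where a probe was well above background, a call made by the scanner software for each spot, on both arrays compared. Of the gene spots, 70.4% to 71.1% were well above background on the 3 arrays. On the CA 100 μM array, 5.29% of the gene spots lay in areas where dim spots were bright together, compared with 0.139% and 0.0441% on the untreated and CA 50 μM arrays. Hepatocyte genes were among the brightest, with ALB (albumin) at 109428 and AFP (alpha-fetoprotein) at 95490 units in the untreated group, while the probe of HNF4A, a hepatocyte transcription factor, was well above background only on the CA 50 μM array. On all 3 arrays, 8 of 10 hepatocyte marker probes and all 6 biliary ones (KRT7, KRT19, SOX9, ONECUT1, EPCAM and SPP1) were well above background. So were 5 of 6 endothelial, 4 of 5 stromal and 7 of 8 immune marker probes, beside 22114 of all 34127 gene probes. The endothelial receptor gene KDR was not well above background on any array.

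MAMLD1 and HES1 are shown first by the sequence just upstream of a transcription start, because both held the core letters TGGGAA recognised by RBPJ, the factor through which Notch acts on DNA. The sequences are from RefSeq on GRCh38.p14 in 5′ to 3′ direction on the plus strand. They cover chr3:194135998-194136147 for HES1 and chrX:150363257-150363316 for MAMLD1, and the capitals mark TGGGAA.
HES1: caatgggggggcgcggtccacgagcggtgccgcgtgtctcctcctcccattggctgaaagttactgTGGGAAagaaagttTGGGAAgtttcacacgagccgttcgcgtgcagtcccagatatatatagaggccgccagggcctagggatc
MAMLD1: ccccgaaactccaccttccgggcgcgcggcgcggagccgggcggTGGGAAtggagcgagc

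In HES1 the cores began at positions -84 and -70 from the start site, and in MAMLD1 the core began at -16 of 1 of its 2 annotated starts. Windows from 250 bases before to 50 bases after a start were listed for 9 of the members, with 14 windows in all, and not for HEY1. TGGGAA on either strand was present in 3 of these windows, of the members HES1, MAMLD1 and RBPJ (1 of its 5 windows). Among all 35116 windows 24.0% held these letters, and 6.25% held the longer GTGGGAA, which overlaps the core and was present in the same 3 members. The N box CACNAG, bound by HES repressors, was found in 8 of the 14 member windows, 1 for each member with a window except JAG1, and in 38.0% of all windows. These matches describe the letters in the windows only.

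No member reached a 2-fold difference at either dose. Of the 14 member probes, 12 were well above background on all 3 arrays, 1 NRARP probe on the CA 50 μM array only, and 1 MAMLD1 probe on none once a spot with an outlier flag had been left out. Of all 34127 gene probes, 22114 were well above background on all 3 arrays. At CA 50 μM, 0 of the 12 probes differed at least 2-fold from untreated, where 1.07% of all 22471 probes compared did. Their log2 ratios ranged from -0.25 to 0.47 with a median of -0.08, beside -0.01 over all probes. Of the 12 probes, which stand for 10 genes, 5 lay above 0, beside 48.2% of all probes. At CA 100 μM, 0 of 12 were at least 2-fold different against 0.894% of all probes. The range was -0.18 to 0.46 and the median 0.04, beside -0.02 over all probes. Above 0 lay 8 of 12, beside 45.2% of all probes. Between the doses, 0 of 12 differed 2-fold against 0.855% of all probes, and the CA 100 μM over CA 50 μM ratios ran from -0.25 to 0.19. For probes with 1 spot, the software's own error estimate for each signal translated to about 0.20 to 0.21 on the log2 ratio scale, and it covers the measurement of a spot, not the culture of cells.

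**Figure D1:**
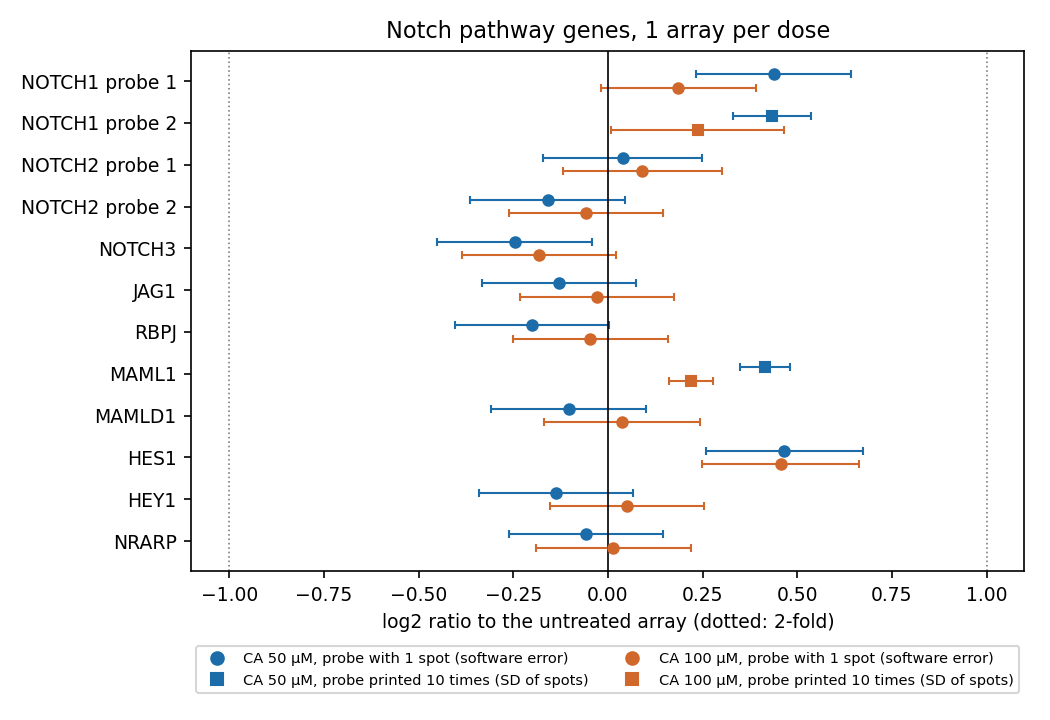
Log2 ratio of each member probe to the untreated array at CA 50 μM (blue) and CA 100 μM (orange). Circles are probes with 1 spot, with bars for the software's error estimate. Squares are probes printed 10 times, placed at the difference of means over all spots kept. Their bars give the SD of the ratios of spots kept on both arrays. NOTCH1 probe 1 is the brighter and NOTCH2 probe 1 the dimmer probe of its gene. All points lie inside the dotted 2-fold lines, and NOTCH1, MAML1 and HES1 stand to the right of 0 at both doses.

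NOTCH1, the receptor best known from T cell leukemia, was measured by 2 probes with similar ratios. Its brighter probe read 399 units untreated, 617 at CA 50 μM and 536 at CA 100 μM, which gave log2 ratios of 0.44 and 0.19 with an error of 0.20 for each. Its other probe was printed 10 times on each array and averaged 57.9, 89.1 and 80.5 units. Its spots spanned 53.8 to 62.4 units untreated, 78.1 to 96.9 at CA 50 μM and 65.4 to 111 at CA 100 μM. These spans are before scaling, and how many of the 999 probes printed 10 times have spots that separate between arrays was not counted. After scaling, the log2 ratio, a difference of means over all spots kept, was 0.43 for the lower dose and 0.24 for the higher one. The SD of spot ratios was 0.10 and 0.23, over the 10 and 9 spots kept on both arrays. The spot of 111 units lay in a disturbed area of the CA 100 μM array, and without disturbed areas the second ratio was 0.18. After normexp background correction the dimmer probe kept 0.15 and 0.07, and the brighter one 0.28 and 0.05.

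NOTCH2 and NOTCH3 differed less than NOTCH1 from the untreated array. NOTCH2, a receptor mutated in Alagille syndrome, had 2 probes that the array assigns to different RefSeq transcripts, and which transcripts each one matches was not checked, since no probe sequence was at hand. The brighter one read 3668, 3746 and 4156 units in the untreated, CA 50 μM and CA 100 μM groups, with log2 ratios of -0.16 and -0.06. The dimmer one, whose sequence may be shared with the NOTCH2NL copies, read 103, 121 and 129 units and gave 0.04 and 0.09. These NOTCH2 ratios were smaller than the error estimate. NOTCH3, a receptor known from vascular smooth muscle, read 844, 811 and 878 units and had the lowest ratios of all members, -0.25 and -0.18, beside errors of 0.20. Both NOTCH3 ratios stayed below 0 under each of the 12 alternative settings that gave a value for single probes, between -0.30 and -0.16.

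JAG1, the ligand whose loss causes most cases of Alagille syndrome, had the brightest probe among the ligands of the pathway, where brightness is a property of a probe and gives no order of transcript levels. It read 5525 units untreated, 5761 at CA 50 μM and 6386 at CA 100 μM. Its log2 ratios of -0.13 and -0.03 were inside the error estimate.

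In the nuclear complex, the ratios of RBPJ lay below 0 and those of the coactivator MAML1 above it. RBPJ, which binds DNA and recruits either corepressors or the Notch complex, read 21201, 21044 and 24220 units, with log2 ratios of -0.20 and -0.05, but the first turned to 0.03 after normexp background correction and the second lay between 0.05 and 0.08 under 4 alternatives. MAML1, a mastermind protein that bridges Notch and RBPJ to histone acetyltransferases, was measured by a probe printed 10 times, and averaged 482, 733 and 662 units. Its untreated spots lay between 440 and 516 units and its CA 50 μM spots between 707 and 765. At CA 100 μM the lowest of 10 spots read 520 units and the highest 716, all before scaling. As for NOTCH1, how many of the 999 probes printed 10 times have spots that separate between arrays was not counted. The scaled log2 ratio, a difference of means over all spots kept, was 0.41 for the lower dose and 0.22 for the higher one. The SD of spot ratios was 0.065 and 0.057, each over the 9 spots kept on both arrays. The ratio of 0.22 thus includes 1 CA 100 μM spot that its SD leaves out. After normexp background correction the MAML1 ratios were 0.30 and 0.11. The lowest CA 100 μM spot had no partner among the untreated spots kept and, after scaling, was level with the lowest untreated one. Spots of 1 probe share 1 RNA preparation, so that their spread covers printing and scanning only.

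**Figure D2:**
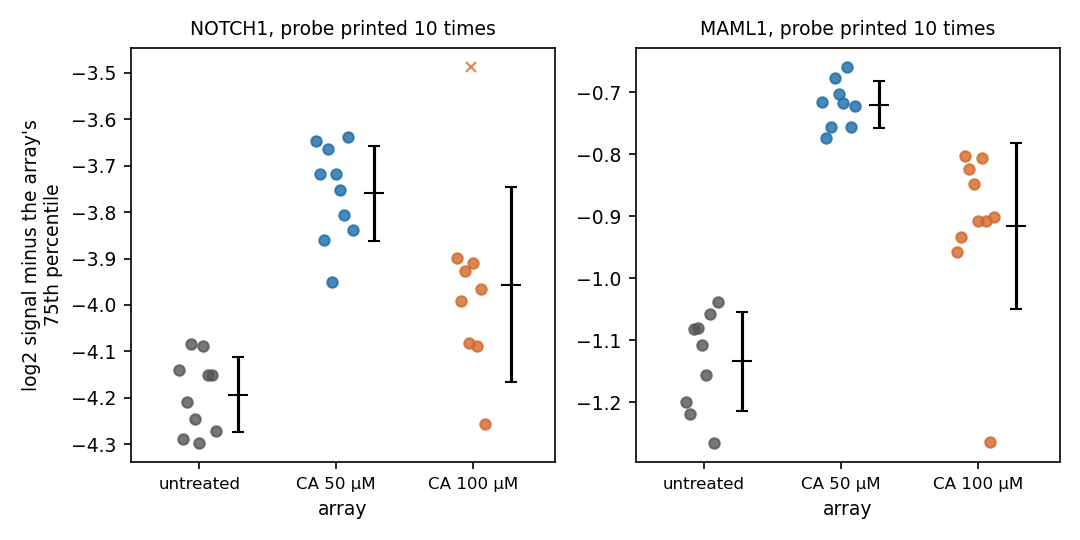
Log2 signal minus the 75th percentile of the array for each spot kept of the NOTCH1 probe (left) and the MAML1 probe (right) that were printed 10 times, by array (untreated, CA 50 μM, CA 100 μM). Black marks give the mean and SD over spots, and a cross marks a spot in a disturbed area. On this scale, 2 CA 100 μM spots of NOTCH1 and 1 of MAML1 lie in the untreated range. How many other probes printed 10 times have spots that separate between arrays was not counted.

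MAMLD1 was measured by 2 probes that differed in brightness and in what they showed. It is an X-linked gene whose product resembles the mastermind coactivators and is known from hypospadias. Its bright probe read 276 ± 27.8 units untreated, 293 ± 29.5 at CA 50 μM and 335 ± 33.6 at CA 100 μM, where the errors are the software's estimates. These signals lay within 1 error of each other at CA 50 μM, and after scaling the log2 ratio was -0.10 for CA 50 μM and 0.04 for CA 100 μM, with errors of 0.20. Thus the CA 50 μM signal was above the untreated one before scaling and below it afterwards. The second was -0.01 after quantile normalization. Among the probes of like signal (10 classes), 29.0% had a lower ratio under the lower dose and 53.1% under the higher one. Between the doses, the CA 100 μM over CA 50 μM log2 ratio was 0.14.

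The dim MAMLD1 probe read 3.06 units untreated, 103 at CA 50 μM and 3.44 at CA 100 μM. Of these, only the CA 50 μM spot was well above background. That spot carried the software's flag for non-uniform pixels, so that it was left out of the ratios above. The median pixel of the spot, which a few bright pixels do not move, was 61 untreated, 74.5 at the lower and 62 at the higher dose, over local backgrounds of 32, 29 and 30 units. The net medians were thus 29, 45.5 and 32 units. On the same arrays, spots not well above background had net medians of 33, 35 and 37 units at their middle, and 43, 45 and 48 units at their 95th percentile. The net median of the CA 50 μM spot was thus near that 95th percentile (45.5 against 45 units), and those of the other 2 spots lay below the middle of such spots. Since the untreated spot was not above background, the processed signal of the CA 50 μM spot, if kept, gave only a bound of at least 7.42-fold over untreated.

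In the log2 table deposited with the arrays, in which outlier flags had not removed the spot, the dim MAMLD1 probe stood at 2.33, 6.60 and 2.32 in the untreated, CA 50 μM and CA 100 μM columns. The CA 50 μM difference of 4.27, or 19.3-fold, ranked 6 of 34127 gene probes in that table, and the CA 100 μM difference was -0.0053. The bright MAMLD1 probe differed in the same table by -0.18 and 0.0015. Among the 20 largest rises at CA 50 μM in the table, 19 were probes not well above background on the untreated array. Of all gene spots on that array, 70.4% were well above background. An outlier flag on at least 1 array was present for 4 of the 20, compared with 2.15% of all gene probes. On the CA 50 μM array, 40 gene spots were flagged as non-uniform, and 6 of them (15.0%) were at least 4-fold brighter than on both other arrays, beside 54 of 42549 spots without an outlier flag (0.127%). The dim MAMLD1 spot is itself among these 40 flagged spots and these 6, and the part of pixel non-uniformity in its value was not tested.

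**Figure D3:**
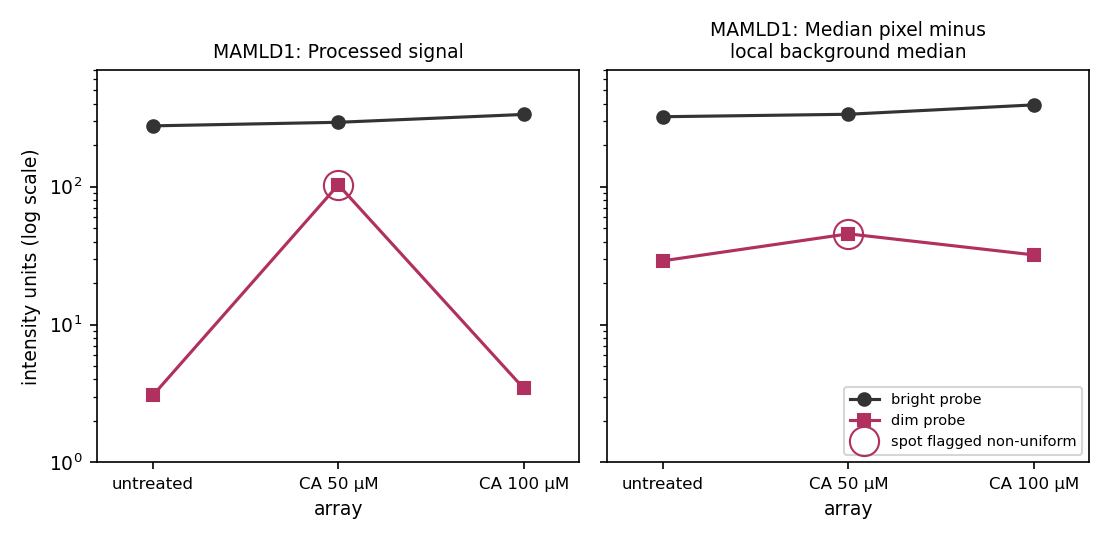
Processed signal (left) and median pixel minus local background median (right), on a shared log axis in intensity units, for the bright probe (grey circles) and the dim probe (red squares) of MAMLD1 on the 3 arrays. The open circle marks the CA 50 μM spot flagged as non-uniform, which stands at 103 units by processed signal and at 45.5 by net median, against 3.06 and 29 on the untreated array.

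By the pair of its CA 50 μM and CA 100 μM log2 ratios, the bright MAMLD1 probe was most like JMJD6 (-0.10 and 0.04), CDH19 (-0.10 and 0.04) and ENSA (-0.11 and 0.03). The distances were 0.0029, 0.0041 and 0.0068 over 2 ratios, among 3049 genes within 1 log2 unit of its level. Within a distance of 0.1 there were 339 genes, so that the pattern was a common one.

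HES1, a repressor that is the classical direct target of Notch, had the highest ratios of all members. It read 117 units untreated, 185 at CA 50 μM and 190 at CA 100 μM, with log2 ratios of 0.47 and 0.46 and an error of 0.21. Among probes of like signal, 88.0% had a lower ratio at CA 50 μM, and at CA 100 μM these probes had a median of 0.01 (SD 0.27 over 2227 probes). After normexp background correction the HES1 ratios were 0.21 and 0.26. HES1 thus exceeded its measurement error at both doses without reaching 2-fold, and has 1 probe with 1 spot. Its signal at CA 100 μM differed from that at CA 50 μM by -0.0097 on the log2 scale.

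HEY1 and NRARP, the other two targets, did not share the ratios of HES1. HEY1, a repressor of the hairy family, read 3232, 3350 and 3948 units, with log2 ratios of -0.14 and 0.05 beside errors of 0.20. The bright probe of NRARP, which is induced by Notch and limits it, read 762, 835 and 908 units and gave -0.06 and 0.01. A dim NRARP probe read 2.71, 16.6 and 3.09 units and was well above background at CA 50 μM only, which gave a signal at least 1.19-fold higher than untreated and at least 1.16-fold higher than at CA 100 μM. Without a filter on dim probes its CA 50 μM log2 ratio would be 2.42, while the bright probe of the same gene stayed within 0.11 of 0 under all 12 settings.

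The members with the higher ratios were also among the dimmer ones, but not all dim probes had high ratios. The dimmer NOTCH2 probe (103 units untreated) and the bright MAMLD1 probe (276) gave 0.04 and -0.10 at CA 50 μM. Both were dimmer than MAML1 (482) and the brighter NOTCH1 probe (399). Over all probes, the median log2 ratio at CA 50 μM was -0.0025 in the dimmest of 10 signal classes. From 0.065 in the second class it fell with signal to -0.13 in the brightest. MAML1 and the brighter NOTCH1 probe (class median 0.01), the dimmer NOTCH1 probe (0.06) and HES1 (0.06) remained above the median of their own class. The SD of all ratios in a class was 0.30 for that of MAML1 and the brighter NOTCH1 probe, 0.38 for that of the dimmer NOTCH1 probe and 0.35 for that of HES1. Of probes of like signal, 88.3% (MAML1), 89.4% and 84.0% (NOTCH1) and 88.0% (HES1) had a lower ratio. RBPJ at -0.20 was nearer to its class (-0.13) than to 0. At CA 100 μM the class medians did not fall throughout, with -0.046 in the dimmest class, 0.023 in the fifth and -0.082 in the brightest. The part of signal level in the member ratios was not tested.

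The wider Notch pathway, listed as 71 genes in 9 roles that include the members, had a probe for 70 genes. HELT was not analysed here. Of its 93 probes, 80 probes of 62 genes were well above background on all 3 arrays, 4 on some and 9 on none. Over the whole array, 22114 of 34127 gene probes were well above background on all 3. At CA 50 μM 39 of the 80 pathway probes lay above and 41 below 0, with a median of -0.02, where 48.2% of all probes lay above 0. RFNG alone was at least 2-fold higher and 0 were 2-fold lower, which is 1 of 80 where the share over all probes was 1.07%. At CA 100 μM 37 lay above and 43 below 0, the median was -0.01, and 0 of 80 reached 2-fold, against 0.894% over all probes. Of all probes, 45.2% lay above 0 at that dose.

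RFNG, a fringe enzyme that adds sugars to Notch and alters its response to ligands, read 36.6, 89.3 and 64.2 units and differed 2.14-fold from untreated at CA 50 μM, with a log2 ratio of 0.57 at CA 100 μM. The first was 0.26 on the log2 scale after normexp background correction and stayed at or above 2-fold under 11 of 12 settings. The other 6 glycosylation probes all lay below 0 at CA 50 μM, and the role had a median of -0.28. POFUT1, which adds the fucose that fringe enzymes extend, was the brightest of them and read 628, 438 and 638 units, with -0.71 and -0.22, while its other probe gave -0.28 and 0.04.

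Among the proteases that cut Notch, FURIN, which processes the receptor on its way to the surface, had the largest ratio. It read 209, 468 and 339 units, with log2 ratios of 0.97 and 0.46 that became 0.57 and 0.24 after normexp background correction. NCSTN, a subunit of the γ-secretase that releases the intracellular domain, was the brightest at 8567 units and gave -0.18 and -0.15. In the 11 protease probes the medians were 0.16 and 0.11.

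NOTCH4, an endothelial receptor and the only receptor of the list outside the members, had the lowest ratios of the receptors. It read 54.5, 39.5 and 35.8 units and gave -0.65 and -0.84, or -0.23 and -0.29 after normexp. NEURL1, a ubiquitin ligase that acts on ligands, read 3461, 2675 and 2506 units and gave -0.56 and -0.70. Among probes of like signal, 0.534% had a lower ratio under the lower dose and 0.0898% under the higher one. NEURL1 was named as the brightest and most changed gene of its role, so that a place near the edge follows in part from that choice. It has 1 probe with 1 spot and ratio errors of 0.20. Of the ligands, DLK1, a noncanonical one, had the largest difference at CA 50 μM, 0.43 for the dimmer of its 2 probes (0.14 after normexp), but 0.01 for the other. DLL4, an endothelial ligand, was above background at CA 100 μM only, at least 1.33-fold higher than untreated.

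Of the nuclear coactivators, EP300, a histone acetyltransferase recruited by mastermind proteins, stood out by a similar ratio at both doses. It read 1120, 1975 and 1982 units, with log2 ratios of 0.63 and 0.59 that stayed between 0.51 and 0.65 under all 12 settings. The 9 coactivator probes together had medians of -0.13 and -0.03. MAML3, another mastermind gene, had 1 probe above background on all arrays with ratios of -0.13 and -0.49, and 1 probe that was above it after CA only, with bounds of at least 1.62-fold higher for CA 50 μM and at least 1.09-fold higher for CA 100 μM. The ratio errors of the first MAML3 probe were 0.29 and 0.32, and the second read only 10.4, 22.5 and 15.8 units. Its remaining probe, A_33_P3335366, was above background on none of the arrays, so the direction for MAML3 was not settled. Of the 19 corepressor probes, HDAC1 was the brightest at 30619 units with -0.03 and -0.02, and the largest ratio at CA 50 μM was 0.51 for a probe of CTBP1 (0.28 after normexp), beside 0.21 for its other probe (0.34).

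Among regulators of receptor turnover, FBXW7, which marks the intracellular domain for destruction, was the brightest at 1199 units with ratios of 0.04 and 0.19. DTX2, a ubiquitin ligase, gave 0.85 and 0.40 at a low signal of 27.7 units untreated, and 0.27 and 0.10 after normexp. DTX3 was above background at CA 50 μM only, at least 1.06-fold higher. In the targets and the HES and HEY family, HES4 was the brightest at 9211 units with -0.09 and -0.16. The largest ratios, 0.86 and 0.97, belonged to a HES6 probe of 18.0 units and became 0.18 and 0.24 after normexp, whereas the brightest of the 4 HES6 probes, at 7156 units, gave -0.19 and -0.07.

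**Figure D4:**
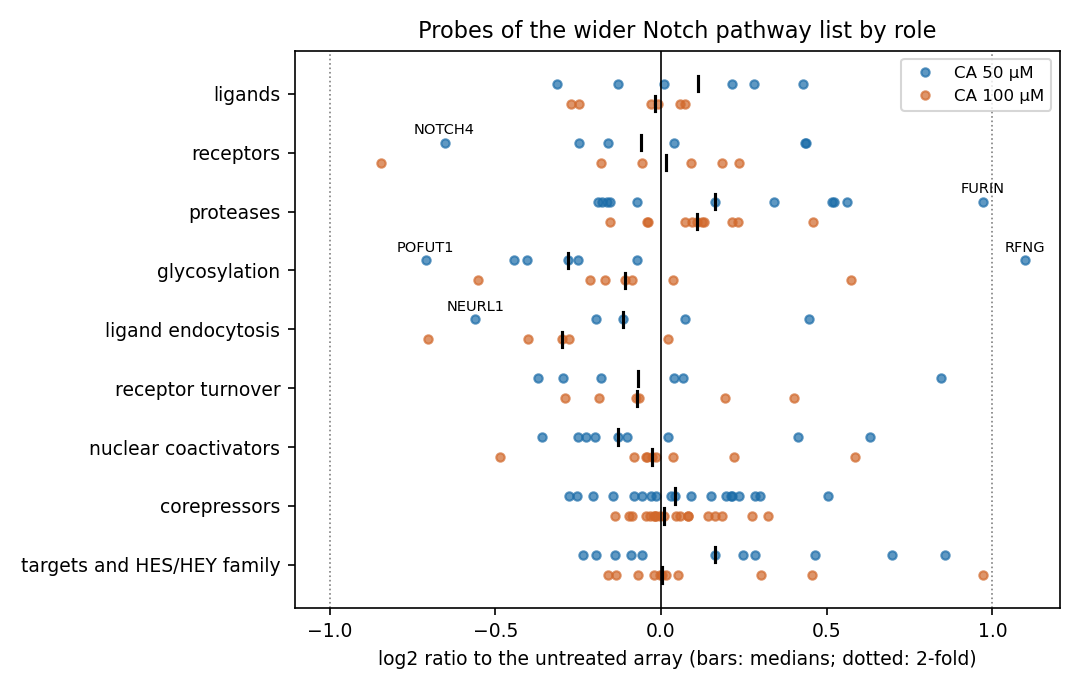
Log2 ratio to the untreated array for the probes of the wider pathway list that were well above background on both arrays, by role, at CA 50 μM (blue) and CA 100 μM (orange). Black bars are medians of a role; RFNG at CA 50 μM is the only point outside the dotted 2-fold lines, and the role medians lie between -0.30 and 0.16.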

How the data were processed

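The authors scanned the 3 arrays with Feature Extraction 11.0.1.1, per the labels, and deposited spot files of intensity in arbitrary units, with background subtracted and low values replaced by a positive surrogate. The authors also deposited a log2 table per probe, by a method not given in the sources used here, which served as an alternative only. Arrays of other cells, and of miRNA, were not used here.

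From log2 of the processed signal, the 75th percentile over unflagged gene spots was subtracted on each array. Control spots and 429, 569 and 596 gene spots with an outlier flag on the arrays of the untreated group, CA 50 μM and CA 100 μM were left out. Probes printed 10 times were averaged on the log2 scale and counted as above background when at least 50% of their spots were. Probes above background on 1 of 2 arrays were given as bounds, against the higher of their own signal and the lowest signal of a probe above background on the other array. Every probe was kept apart. Gene names came from RefSeq accessions and the GRCh38.p14 gene table (25771 of 34127 probes named), and promoter windows from RefSeq. No probe position is given, because the design of the array follows GRCh37. Groups were taken from the treatment label.

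With 1 array per group there was no test, and 2-fold was a fixed rule of size. The number of arrays limits the precision. A disturbed area was a window of 17 by 7 spots (rows by columns) with at least 5 spots, and 25% of the spots dim on both other arrays, at least 4-fold brighter. As alternatives, values were also taken after cyclic loess, quantile normalization, median centring or normexp on median pixels (offset 50), from the deposited log2 table, with looser filters, with 1 value per gene, and leaving out saturated spots, disturbed areas or spots with background flags. Keeping flagged spots was added after seeing the data. The members and gene lists were chosen with earlier results of these data known. Genes named were all members, list genes past 2-fold or with a bound, the brightest and the most changed gene of each role, the 3 genes most like MAMLD1, and cell type markers. The steps were tested on simulated data. Python 3.11.15, numpy 2.4.6, pandas 2.3.3, matplotlib 3.10.9, R 4.3.3 and limma 3.58.1 were used.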

Additional observations from a re-analysis of the deposited data

Results flagged for a closer look

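One value outside the main measurement stood above the level in the untreated group. The CA 50 μM spot of the dim MAMLD1 probe, which was left out for its non-uniform pixels, had a processed signal of 103 ± 20.2 units (the software's error estimate), against 3.06 ± 3.05 on the untreated array and 3.44 ± 3.42 at CA 100 μM. Its net median pixel was 45.5 units against 29 and 32. The bright probe of MAMLD1 read 276, 293 and 335 units on the same arrays.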

How the results depend on the processing

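No paired analysis was possible because each group held 1 array, and for the same reason no replicate could be left out. Values of the 12 member probes above background were taken under the 12 alternatives that kept probes apart, over both doses. Of these values, 263 moved by less than the SD of spot ratios of replicated probes of like signal and 25 by more. Many of them could not move, since looser filters alone leave probes above background unchanged. Likewise, the arrays of the untreated group, CA 50 μM and CA 100 μM held only 0, 0 and 1 saturated gene spots. The counts of settings given above share this limit. Under these alternatives, 9 of 12 member probes kept their sign at CA 50 μM and 8 of 12 at CA 100 μM, among them both NOTCH1 probes, MAML1, NOTCH3 and HES1 at both doses. The sign changed for RBPJ and the bright NRARP probe at both doses, for the dimmer NOTCH2 probe at CA 50 μM, and for JAG1 and the bright MAMLD1 probe at CA 100 μM, all from ratios of at most 0.20 in size. At CA 50 μM, the member median was 0.015 after normexp correction and -0.0092 with outlier spots kept and no filter on dim probes. The bright MAMLD1 probe gave -0.18 under quantile normalization and in the deposited log2 table. The member probes at least 2-fold different numbered 1 with a filter on 1 of 2 arrays or none (the dim NRARP probe), and 2 with outlier spots kept as well, the second being the dim MAMLD1 probe at 4.89. In the wider list the count at CA 50 μM was 0 after normexp, 2 with the filter on 1 array, 4 without a filter and 5 with outlier spots kept as well. At CA 100 μM it was 1 with the filter on 1 array and 3 without one, with or without outlier spots, and the dim MAMLD1 probe gave -0.07 in both. The cause of these shifts was not tested. Dim signals limit these values, since the SD of spot ratios was 0.126 in the dimmest of 4 signal classes of replicated probes at CA 50 μM and 0.050 in the brightest.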
